A study of Mus musculus with 4 samples.

Results

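Th-expressing interneurons of the medial ganglionic eminence lineage (MGE, Th cells) were described here, 429 of the 26201 cells kept from 26987 barcodes. They were selected on their own counts as inhibitory cells with at least 2 unique transcript molecules (UMIs) of Th, the gene for tyrosine hydroxylase. Each had 200 to 6000 genes, under 30% mitochondrial UMIs, at least 2 UMIs of Gad1 and Gad2 together and none of Mog or Crabp1, with Chodl under 2 and Pthlh under 3 UMIs. They made up 4.32% of 9939 interneurons (the same gate on Gad1, Gad2 and Mog) and 1.64% of all kept cells.

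The study sorted TdTomato-positive cells from frontal cortex and hippocampus of juvenile mice at postnatal days 18 to 20 and counted transcripts in single cells. In the paper, solutions from slice recovery through sorting held the activity blockers tetrodotoxin and APV, and actinomycin D. Every mouse carried Nkx2-1-Cre and the Ai14 reporter. WT mice had intact Grin1, and null mice had floxed Grin1 (fl/fl), so that the obligatory NMDA receptor subunit was lost in the Nkx2-1 lineage. The 4 groups were WT cortex (217 Th cells), null cortex (153), WT hippocampus (30) and null hippocampus (29). Nkx2-1-Cre acts in progenitors that also give rise to oligodendrocytes, so deletion was not limited to interneurons. Each library pooled cells of several mice, so the spread between libraries was not a spread between animals.

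Interneurons born in the MGE become mostly Sst or Pvalb cells, and some also take up a neurogliaform fate in the hippocampus. Tyrosine hydroxylase is the first enzyme of catecholamine synthesis, and making dopamine further requires Ddc, the decarboxylase that follows it. Nr4a2 is a nuclear receptor that takes part in Th expression in midbrain dopamine neurons, Rasgrp1 is an exchange factor that activates Ras, and Kcnip4 is a subunit that binds Kv4 potassium channels.

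The 10 libraries held unequal numbers of these cells. WT cortex replicates 1, 2 and 3 held 68, 40 and 109 Th cells, and null cortex replicates 1 and 2 held 5 and 148. WT hippocampus replicates held 4, 4 and 22, and null hippocampus replicates 5 and 24. Null cortex replicate 2 alone contributed 34.5% of all Th cells. Only 6 libraries reached the 10 cells required for a summed profile: the 3 of WT cortex and the deeper one of each other group. Their Th cells summed to between 238484 and 2017684 UMIs. The median depth was 10409 UMIs per Th cell, from 2474 in WT hippocampus replicate 2 to 15006 in null hippocampus replicate 2.

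Some libraries stood apart. In WT hippocampus replicate 3, 1 cell held 702 of the 741 UMIs of oligodendrocyte markers, and the summed level of that list was 3107 CPM (UMIs of the genes scaled to the total of the library) with this cell and 178 CPM without it. In WT hippocampus replicate 2, 1 of the 4 cells held all 93 astrocyte marker UMIs. Libraries shared 95 barcodes over 22 of 45 library pairs, at most 12 in 1 pair, and no shared barcode was a Th cell in both libraries. Among 7078 oligodendrocytes, whose median depth was 5795 UMIs, 4 cells (0.0565%) had a Th UMI and 0 had 2 or more, which allows a share of up to 0.0424%.

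The choice rested on Th, so the label markers are given as values without a test. Th cells had a median of 3 Th UMIs and at most 15. Nr4a2 was detected in 72.0% of Th cells, 5.23% of interneurons without Th (Th-0 cells, 8477, median 7254 UMIs, held to the same Crabp1, Chodl and Pthlh limits) and 1.55% of oligodendrocytes. Rasgrp1 was detected in 74.6, 11.04 and 0.170%, and Kcnip4 in 79.3, 21.4 and 0.325%. All 3 markers were therefore far above the background. Thinning to 1000 UMIs, here and below, used the cells of at least that depth (428 Th cells, 8138 Th-0 cells and 6703 oligodendrocytes). The thinned shares in Th cells were 18.3, 19.2 and 27.0%, against 1.26, 2.01 and 4.89% in Th-0 cells.

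Label marker levels were higher in cells just inside the Th threshold than in those just outside it, least so for Kcnip4. The 123 cells with 2 Th UMIs had Nr4a2 at 184, Rasgrp1 at 179.6 and Kcnip4 at 274 CPM. The 198 cells with 1 Th UMI had 134, 109 and 260.0 CPM, and Th-0 cells 10.7, 19.7 and 55.3 CPM. Cells with 1 Th UMI thus lay nearer to those with 2 than to those without Th for all 3 genes. Nr4a2 stood at 157, 188 and 226 CPM in the Th cells of WT cortex, 199 and 195 in null cortex, 187, 91.2 and 189 in WT hippocampus and 267 and 293 in null hippocampus. The lowest of these values came from a library of 4 cells.

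**Figure D1:**
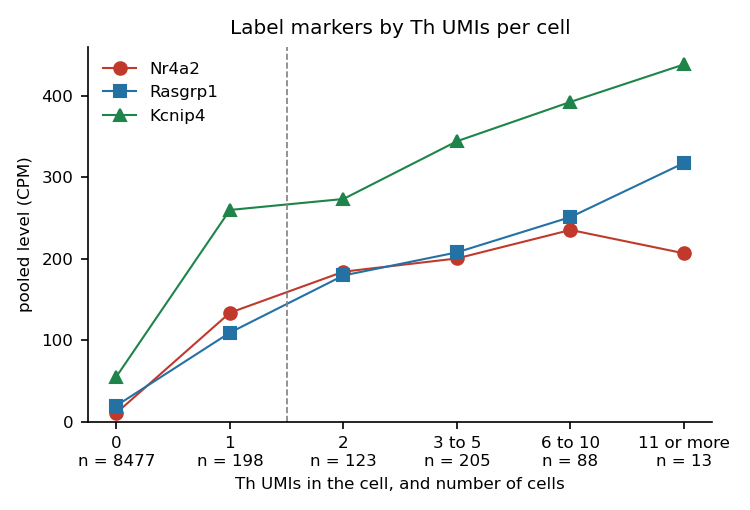
Pooled levels (CPM, y axis) of Nr4a2, Rasgrp1 and Kcnip4 in interneurons grouped by Th UMIs per cell (x axis, with the number of cells). The dashed line marks the threshold of 2 UMIs; Nr4a2 was at 10.7 CPM with no Th UMI and at 235 CPM with 6 to 10.

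Other dopaminergic genes were rare in Th cells. Pitx3, Foxa2, En1 and Aldh1a1 had no UMI in any Th cell, and Slc6a3, the dopamine transporter, was seen in 1 cell. Ddc was detected in 1.17% of Th cells and 0.885% of Th-0 cells (0.181 and 0.140% thinned to 1000 UMIs), and oligodendrocytes, at 21.6%, give no background for it. Slc18a2, the vesicular monoamine transporter, was detected in 3.73% of Th cells, 1.12% of Th-0 cells and 0.254% of oligodendrocytes, and Gch1, which makes the cofactor of tyrosine hydroxylase, in 2.56, 0.366 and 0.0706%. Thinned to 1000 UMIs, Slc18a2 was at 0.411, 0.152 and 0.0301% and Gch1 at 0.211, 0.0571 and 0.0124%, so both were above the background.

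Th cells were mixed in Sst and Pvalb. With at least 10 Sst UMIs or at least 2 Pvalb UMIs as limits, 33.6% were Sst only, 30.5% Pvalb only, 4.90% both and 31.0% neither. Any Sst UMI was found in 66.2% and any Pvalb UMI in 49.7% of Th cells, against 17.8 and 2.32% of oligodendrocytes (45.4 and 22.3% against 3.92 and 0.457% after thinning). The makeup varied between libraries. Sst-only cells were 25.0, 52.5 and 42.2% in WT cortex, 23.0% in null cortex replicate 2, 54.5% in WT hippocampus replicate 3 and 25.0% in null hippocampus replicate 2. Pvalb-only cells were 51.5, 15.0 and 27.5%, 29.7%, 13.6% and 33.3% in the same libraries. WT cortex replicate 1 was thus highest in Pvalb-only cells.

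The Sst-only and Pvalb-only cells both carried the label markers and differed in peptides, given as pooled levels without a test. Nr4a2 was at 139.6 and 218 CPM, Rasgrp1 at 147 and 268 and Kcnip4 at 231 and 359 in Sst-only and Pvalb-only cells. Among peptides, Npy was at 6382 and 389.9 CPM, Penk at 241 and 9.35, and Tac1 at 515 and 1034. Calb1, a calcium buffer, was at 382 and 20.7 CPM, and Syt2, a vesicle calcium sensor of fast-spiking terminals, at 1.26 and 142. Bcl6, a transcriptional repressor, was at 63.5 and 75.4 CPM, and Satb1, a chromatin organiser of MGE cells, at 772 and 861.

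Crh, the gene of corticotropin-releasing hormone, and Nr4a2 were found together in 21 of the Th cells with Crh, while 22 had Crh alone. Nr4a2 without Crh was detected in 67.1%, Crh without Nr4a2 in 5.13%, both in 4.90% and neither in 22.8%. Crh-only cells had Sst at 15469 and Pvalb at 16.6 CPM, whereas Nr4a2-only cells had Sst at 5527 and Pvalb at 480.0 CPM.

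Th cells were next compared with Th-0 interneurons of the same library, which asks what accompanies Th beyond the gate. Th cells were higher in Gpc4, Slit2, Chrm2 and Bcl6, and lower in Maf, several glutamate receptor subunits and 12 of 20 Sst-type genes. Gpc4, a cell-surface heparan sulphate proteoglycan, was among the higher genes. Across the 6 libraries its lowest, median and highest levels were 40.9, 64.8 and 98.4 CPM in Th cells and 2.20, 3.79 and 6.58 in Th-0 cells. The ranges did not overlap, and the log2 difference was 4.10 (SE 0.195, n = 6 libraries, adjusted p = 1.66e-21 in the quasi-likelihood test of edgeR, adjusted after Benjamini-Hochberg).

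Slit2, a secreted axon guidance cue, was at 120.5, 151 and 177 CPM in Th cells and 16.1, 23.1 and 34.7 in Th-0 cells (log2 difference 2.60, SE 0.122). Chrm2, the M2 muscarinic receptor, was at 54.5, 80.8 and 146 against 14.2, 18.5 and 33.6 CPM (2.13, SE 0.143). Bcl6 was at 47.3, 77.9 and 127 against 7.41, 11.7 and 29.5 CPM (2.30, SE 0.147). For all 3 genes the lowest library of Th cells lay above the highest of Th-0 cells. Shisa8, of a family of AMPA receptor partners, and Gabrg1, a GABA-A receptor subunit, rose by 3.41 (SE 0.208) and 3.07 (SE 0.394) on the log2 scale. Gabrg1 lost its call when any of 5 libraries was left out.

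Of 12884 genes tested, 748 were called higher (5.81%) and 1055 lower (8.19%) in Th cells, 14.0% in all. The balance of directions depended on the test, as DESeq2 called 693 higher and 613 lower. A call needed an adjusted p below 0.01 and an absolute change of 0.1 or more in natural logs. Th and the other gate genes were not tested. Sst-type genes included 0 higher and 12 lower of 20 tested, with a median log2 difference of -2.14 beside -0.05 over all genes. Nr2f2, a nuclear receptor of caudal and Sst interneurons, was at 0, 2.32 and 11.4 CPM in Th cells and 41.6, 55.7 and 89.3 in Th-0 cells, a fall on the log2 scale of -4.15 (SE 0.248). Elfn1, a synaptic protein that recruits presynaptic glutamate receptors, was at 2.66, 19.1 and 28.6 against 96.8, 132 and 171 CPM (-3.03, SE 0.157). Neither gene's ranges overlapped. Pvalb-type genes included 7 higher and 4 lower of 21, with a median of 0.63.

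Among MGE and interneuron transcription factors, 2 of 25 tested were higher and 11 lower (median -0.54). Maf was at 24.6, 45.4 and 63.8 CPM in Th cells and 98.7, 219.8 and 253 in Th-0 cells. It regulates the development of MGE interneurons and was lower without overlap (log2 difference -2.11, SE 0.115). The rises were Bcl6 and Sp9, the latter at 73.6, 159 and 199 against 29.6, 57.2 and 110.1 CPM (1.30, SE 0.184), with overlapping ranges. Lhx6, the defining factor of the lineage, was at 45.4, 78.8 and 102 CPM in Th cells and 74.5, 128 and 157 in Th-0 cells (-0.60, SE 0.109), and was not called with the WT libraries alone or with group as the block.

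Ionotropic glutamate receptors and their partners had 3 higher and 8 lower of 17 (median -0.45). Grin2a, an NMDA receptor subunit, was at 0, 5.88 and 10.2 CPM in Th cells and 39.7, 61.4 and 128 in Th-0 cells (-3.57, SE 0.227). Gria4, an AMPA receptor subunit, was lower by a log2 difference of -1.24 (SE 0.119), and Grik1, a kainate receptor subunit, higher by 0.86 (SE 0.118). Grin2a thus showed no overlap between the classes in any of the 6 libraries. Kv4 channels and partners, the family that Kcnip4 belongs to, had 1 higher and 4 lower of 8 (median -0.96). The channel gene Kcnd3 and the subunit Kcnip1 were lower (-1.70, SE 0.181, and -1.38, SE 0.153), and the auxiliary subunit Dpp6 was higher (0.58, SE 0.0887), though not with group as the block. The other lower genes, Kcnip3 and Dpp10, were not called without null cortex replicate 2 or with the cortical libraries alone. Dpp10 was also lost without WT hippocampus replicate 3. Kcnip3 was also lost with DESeq2, with group as the block, with the WT libraries alone and without null hippocampus replicate 2. Other potassium and HCN channels had 5 higher and 2 lower of 17 (median 0.17). Kcnc2, a Kv3 channel of fast-spiking cells, was at 574, 741 and 1178 against 210.5, 319.7 and 446 CPM (1.23, SE 0.138).

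RasGRP and Ras-MAPK genes had 0 higher and 4 lower of 14 (median -0.17), among them Rasgrf2, another Ras exchange factor (-1.74, SE 0.113). Metabotropic glutamate and GABA receptors had 2 higher and 4 lower of 20 (median 0.16), monoamine and acetylcholine receptors 2 higher and 0 lower of 14 (median -0.42), and neuropeptides 1 higher and 2 lower of 15 (median -0.59). Catecholamine genes had 2 higher and 0 lower of 11 (median 0.48), namely Pnmt, with a median of 3.06 CPM in Th cells, and Gch1, with 2.88 CPM. Both calls were lost when null cortex replicate 2, null hippocampus replicate 2 or WT cortex replicate 1 was left out. Activity-regulated genes gave 0 of 14 in edgeR's quasi-likelihood test (median 0.20), in cells handled in activity blockers and actinomycin D.

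Markers of other cells differed as well. All 5 neurogliaform markers tested were lower in Th cells, and their summed level was 70.0, 89.9 and 78.8 CPM in the Th cells of WT cortex against 496, 480 and 443 CPM in Th-0 cells. It was 85.2 against 870.3 in null cortex replicate 2, 58.7 against 1828 in WT hippocampus replicate 3 and 95.7 against 1774 in null hippocampus replicate 2. The most abundant of these markers was Id2 in Th cells and Hapln1 in Th-0 cells, and none was at 0. Without null cortex replicate 2, Reln and Hapln1 were not called, and with the WT libraries alone Hapln1 was not. Oligodendrocyte markers gave 0 calls of 7.

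Astrocyte markers had 1 higher (Aldoc) and 2 lower of 4. Their summed level was 153, 53.1 and 117 CPM in the Th cells of WT cortex against 55.1, 78.7 and 57.2 in Th-0 cells. It was 199 against 58.9 in null cortex replicate 2, 201 against 109 in WT hippocampus replicate 3 and 261 against 118 in null hippocampus replicate 2, so Th cells were higher in 5 of the 6 libraries. The most abundant was Aldoc in Th cells and Slc1a2 in Th-0 cells, and Slc1a3, Aqp4 and Gja1 were at 0 in the Th cells of these 6 libraries. Aldoc averaged 155 CPM in Th cells and 27.5 in Th-0 cells over these libraries. The sum in Th cells was thus mostly Aldoc, while the 2 other called markers were lower. Glutamatergic markers had 1 higher of 2 tested. Median mitochondrial shares were 2.16, 1.78, 1.90, 2.64, 1.95 and 2.58% in Th cells and 1.19, 1.61, 1.47, 1.96, 1.60 and 1.91% in Th-0 cells of these libraries, higher in Th cells in all 6. The part of neurogliaform cells among the Th-0 cells, of astrocyte transcripts, of depth or of mitochondrial share in the differences was not tested. Without null cortex replicate 2 the count of calls was 1173, and with the WT libraries alone 1009.

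Sst cells, a narrower comparator, were the interneurons with no Th, at least 10 Sst and under 2 Pvalb UMIs (3885 cells), and 33.6% of Th cells met the same Sst and Pvalb limits. Relative to Sst cells, Th cells were higher in 10 and lower in 4 of 19 Pvalb-type genes, and lower in 14 of 19 Sst-type genes. The comparator was chosen on Sst and Pvalb while Th cells were not, and how much of this follows from that choice was not tested. Tac1, the tachykinin precursor, was at 458, 1013 and 1723 CPM in Th cells and 31.3, 155 and 329 in Sst cells (2.80, SE 0.305). Erbb4, the neuregulin receptor of fast-spiking cells, was at 240.3, 396 and 515 against 68.5, 90.7 and 121 CPM (2.09, SE 0.136). Cox6a2, a subunit of cytochrome oxidase, was at 213, 391.7 and 572 against 13.9, 29.5 and 111 CPM (3.20, SE 0.385). In all 3 genes the lowest Th library exceeded the highest Sst library.

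Of 11747 genes tested, 1121 were higher (9.54%) and 1122 lower (9.55%), 19.1% in all, and the all-gene median was -0.01. Pvalb-type genes had 10 higher and 4 lower of 19 (median 1.42), the lower ones being Reln, Calb1, Tpbg and Akr1c18. Of these, Reln also stood on the Sst-type and neurogliaform lists, and Calb1 was detected in 71.3% of Sst cells and 20.8% of Pvalb cells. Sst-type genes had 0 higher and 14 lower of 19 (median -2.47), including Elfn1 (-3.72, SE 0.148) and Nr2f2 (-4.80, SE 0.231). Reln, a secreted matrix protein, was at 0, 14.3 and 40.9 CPM in Th cells and 254, 313 and 374 in Sst cells (-4.11, SE 0.323). Its ranges did not overlap.

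The transcription factors had 7 higher and 10 lower of 24 (median -0.41), ionotropic glutamate receptors 3 and 9 of 17 (median -0.51), metabotropic glutamate and GABA receptors 7 and 4 of 20 (median 0.18) and other potassium and HCN channels 7 and 2 of 17 (median 0.64). Neurogliaform markers had 1 higher (Id2) and 2 lower of 4 (median -2.24). Their summed level was 336, 408 and 403 CPM in the Sst cells of WT cortex, 313 in null cortex replicate 2, 377 in WT hippocampus replicate 3 and 492 in null hippocampus replicate 2, led by Reln with none at 0, and 58.7 to 95.7 CPM in Th cells. Astrocyte markers had 1 higher (Aldoc) and 1 lower of 2 tested, and glutamatergic markers 1 higher of 1. The summed astrocyte level was 39.6, 58.6 and 48.6 CPM in the Sst cells of WT cortex and 60.8 in null cortex replicate 2. It was 85.7 in WT hippocampus replicate 3 and 98.2 in null hippocampus replicate 2. Th cells were higher in this sum except in WT cortex replicate 2 (53.1 CPM in Th cells). Aldoc, at a mean of 155 CPM in Th cells and 17.7 in Sst cells, made up most of the sum in Th cells. The part of these markers in the differences was not tested. With the WT libraries alone the count of calls was 1411, and Tac1 and Cox6a2 were not called there. Tac1 was also not called in the cortical libraries alone, and Cox6a2 without null cortex replicate 2 or without WT cortex replicate 3.

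Pvalb cells were the interneurons with no Th, at least 2 Pvalb and under 10 Sst UMIs (1171 cells), again chosen on genes that Th cells were not held to. The comparisons with Th-0, Sst and Pvalb cells share the Th sums and are not independent of each other. Relative to Pvalb cells, Th cells were higher in Satb1, Fxyd6 and Gabrg1, and lower in Kcnc1 and Cck. Satb1 was at 726, 941 and 1095 CPM in Th cells and 249, 302 and 356 in Pvalb cells (1.59, SE 0.0802). Fxyd6, a regulator of the sodium pump, was at 364, 398 and 575 against 8.13, 30.9 and 54.8 CPM (4.08, SE 0.341). Gabrg1 was at 64.3, 84.7 and 175 against 3.58, 8.29 and 9.22 CPM (3.93, SE 0.190). None of the 3 overlapped, and Gpc4, Bcl6 and Chrm2 were also higher than in Pvalb cells (3.27, SE 0.209; 1.74, SE 0.157; 1.69, SE 0.146).

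Among lower genes, Kcnc1, a Kv3 channel, was at 232, 296 and 475 CPM in Th cells and 523, 685 and 797 in Pvalb cells (-1.02, SE 0.0868), without overlap. Cck, the cholecystokinin precursor, was at 54.5, 111 and 186 against 545, 788 and 1285 CPM (-2.86, SE 0.220). Maf and Grin2a were lower than in Pvalb cells too (-1.86, SE 0.129; -2.47, SE 0.294). Of 9752 genes tested, 583 were higher (5.98%) and 569 lower (5.83%), 11.8% in all, with an all-gene median of -0.01. Pvalb-type genes had 2 higher and 5 lower of 17 (median -0.49), Sst-type genes 1 and 1 of 12 (median 1.35), neuropeptides 3 and 2 of 11 (median 1.44) and other potassium and HCN channels 1 and 4 of 17 (median -0.21). Transcription factors had 5 higher and 7 lower of 22. Neurogliaform markers had 0 higher and 3 lower of 4 (median -2.35). In Pvalb cells their summed level was 144, 131 and 131 CPM in WT cortex and 451 in null cortex replicate 2. It was 1190.5 in WT hippocampus replicate 3 and 701 in null hippocampus replicate 2, led by Hapln1 with none at 0. Astrocyte markers had 1 higher and 0 lower of 2. In Pvalb cells the summed astrocyte level was 103, 107.5 and 44.2 CPM in WT cortex and 71.8 in null cortex replicate 2. It was 100.5 in WT hippocampus replicate 3 and 130 in null hippocampus replicate 2. Th cells were higher in this sum except in WT cortex replicate 2 (53.1 CPM in Th cells). Aldoc was the most abundant marker of the list in both classes. The part of these markers in the differences was not tested. The count of calls was 755 without WT cortex replicate 3, 755 without null cortex replicate 2 and 760 with the WT libraries alone.

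**Figure D2:**
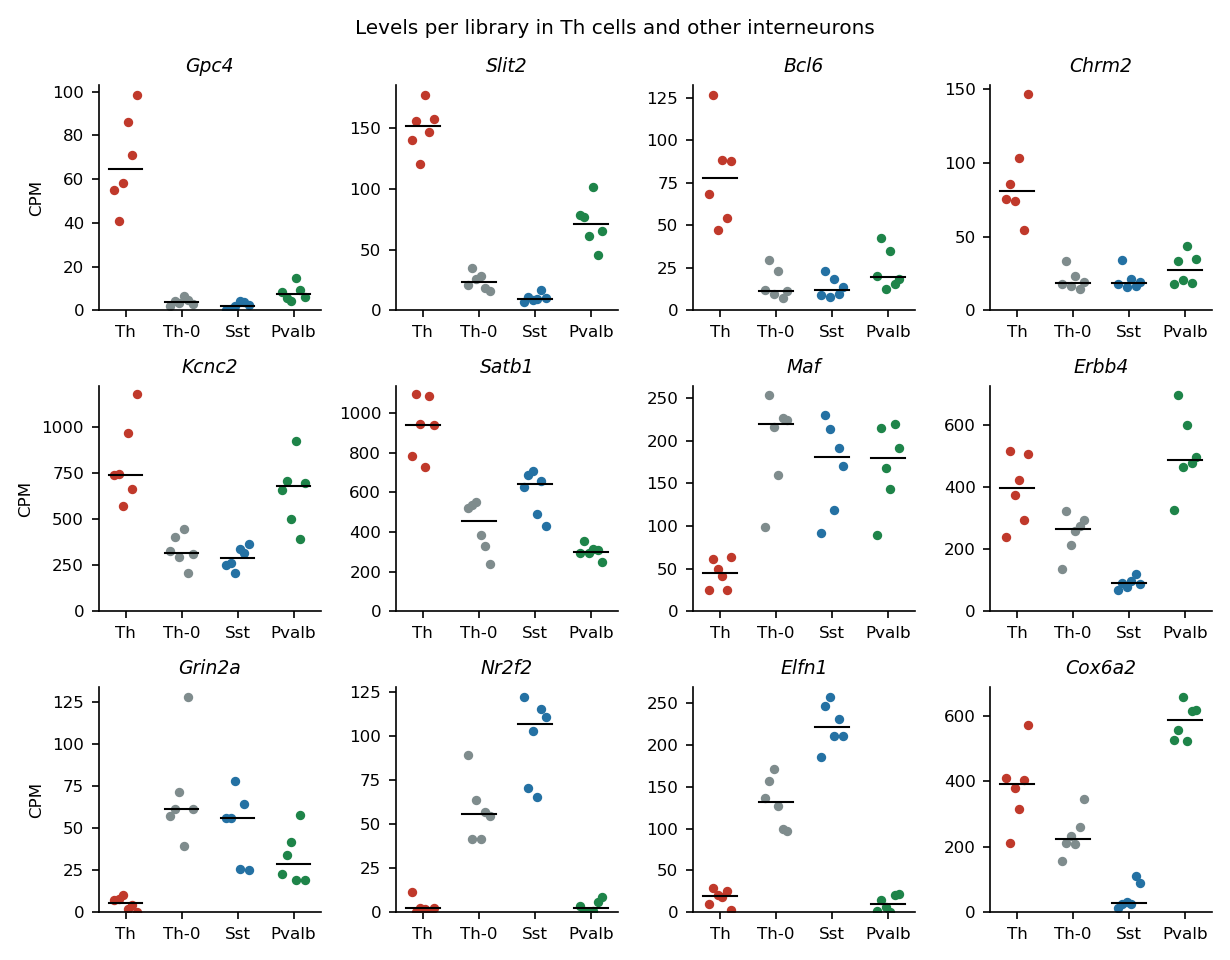
Levels (CPM, y axis) of 12 genes in the Th, Th-0, Sst and Pvalb cells of the 6 libraries with at least 10 Th cells; points are libraries and bars medians. Gpc4, with a median of 64.8 CPM in Th cells, and Grin2a, with 5.88 CPM, did not overlap the Th-0 cells.

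The effect of losing Grin1 in these cells was examined by genotype. Grin1 was at 119, 163 and 200.1 CPM in the Th cells of WT cortex and 0 and 12.4 in null cortex. It was at 141, 0 and 138 in WT hippocampus and 14.8 and 16.0 in null hippocampus, where the 0 came from 4 cells and allows up to 337 CPM (95% Poisson interval, counting error only). Null cortex replicate 2 lay below every WT cortical library, and the 0 of null cortex replicate 1, from 5 cells, allows up to 122 CPM. Grin1 fell by 3.70 on the log2 scale in cortex (SE 0.514, adjusted p = 1.95e-05 in the quasi-likelihood test of edgeR, adjusted after Benjamini-Hochberg).

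Beyond Grin1, 3 genes differed between null and WT cortical Th cells. Arpp21, a phosphoprotein regulated by cAMP, was at 125, 196 and 146 CPM in WT cortex and 0 and 18.8 in null cortex (-3.02, SE 0.478). Atp2b4, a plasma membrane calcium pump, was at 7.57, 8.17 and 11.1 CPM in WT cortex and 33.1 and 76.3 in null cortex (2.96, SE 0.466). Rn7sk, the small nuclear RNA that holds back transcription elongation, was at 5.68, 12.3 and 5.56 against 66.3 and 78.3 CPM (3.51, SE 0.497), and reads of its many near-identical copies cannot be told apart. Null cortex replicate 2 lay outside the WT range for all 3. The values of null cortex replicate 1 rest on 0, 1 and 2 UMIs, under its floor of 99.4 CPM (3 UMIs). For Arpp21 that floor lay below the lowest WT value, 125 CPM, whereas for Atp2b4 and Rn7sk these values show no separation.

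Of 7886 genes tested, 2 were higher (0.0254%) and 2 lower (0.0254%), 0.0507% in all. The test used 1 null library, null cortex replicate 2, against 3 of WT. Its spread came from those 3, the only group with replicates, so it assumed that the null library varied like them. WT cortex replicate 1 was the only 10x v2 library among the 6 of the model. The fit without it, given below, held v3 libraries only, and the part of chemistry in the calls was not tested. The ionotropic glutamate receptors had 0 higher and 1 lower of 14, Grin1 itself (median -0.23), and every other fixed list had 0 calls; 305 genes had an unadjusted p under 0.05, and DESeq2 called 3 genes. Without WT cortex replicate 1 the count was 77 and without WT cortex replicate 2 it was 10, and the 4 genes remained in both. With sums of at least 3 cells and the replicate number as a block, Grin1 and Arpp21 remained while Atp2b4 and Rn7sk were not called. That fit also called Fos, an activity-regulated gene, Lars2, Mir6236 and Rspo3, all lower in null cells. DESeq2 did not call Atp2b4 and Rn7sk either.

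In hippocampus 1 library stood on each side, so no test is given for sums of at least 10 cells, although the shared model left 2 residual degrees of freedom. Grin1 was at 138 CPM in WT replicate 3 (33 UMIs, 95% Poisson interval 95.3 to 194) and 16.0 in null replicate 2 (6 UMIs, 5.86 to 34.7), a log2 difference of -3.12 (interval -4.66 to -1.84, counting error only). Arpp21 was at 12.6 and 5.32 CPM in these libraries, and Atp2b4 at 29.4 and 23.9. Neither gene's Poisson intervals were apart there (Arpp21 2.59 to 36.8 and 0.644 to 19.2; Atp2b4 11.8 to 60.5 and 10.9 to 45.4). With sums of at least 3 cells, an alternative added after the data were seen, edgeR called 0 genes higher and 2 lower in null hippocampus (0.0333% of 6005), Mag and Mbp, which belong to the oligodendrocyte list that 1 cell of WT replicate 3 dominated. Grin1 was not called in that fit (-2.89, SE 0.705, adjusted p = 0.0486 in the quasi-likelihood test of edgeR, adjusted after Benjamini-Hochberg). A test of whether the genotype effect differed between regions, with sums of at least 3 cells in 10 libraries, gave 0 of 6005 genes in edgeR's quasi-likelihood test and 105 at an unadjusted p under 0.05.

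Hippocampal Th cells of WT mice were set against cortical ones to ask how region shapes them. This comparison shares the WT cortex libraries with the genotype comparison and rests on WT hippocampus replicate 3 alone, so the SE and p take their spread from the 3 WT cortex libraries, the only group with replicates. Of 14 neuropeptide genes tested, Npy, Nts and Penk were called lower in hippocampal cells and the others were not called. Npy was at 3370, 6740 and 4503 CPM in WT cortex and 688 in WT hippocampus replicate 3 (1312 and 0 in the libraries of 4 cells). It was at 4110 and 2181 in null cortex and 104 and 120 in null hippocampus. All cortical libraries thus lay above all hippocampal ones, and the log2 difference in WT was -2.85 (SE 0.449, adjusted p = 0.000129 in the quasi-likelihood test of edgeR, adjusted after Benjamini-Hochberg).

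Nts, the neurotensin precursor, was at 60.5, 127 and 111 CPM in WT cortex and 0 in WT hippocampus replicate 3, at least 7.91-fold lower against a floor of 3 UMIs (12.6 CPM). Replicate 1, of 4 cells, had Nts at 46.9 CPM, under its own floor of 141 CPM. Penk was at 83.2, 208 and 143 CPM in WT cortex and 8.39 in WT hippocampus replicate 3, where it rests on 2 UMIs, and 187 in replicate 1. Grin3a, an NMDA receptor subunit, was at 49.2, 143 and 90.8 CPM in WT cortex and 0 in WT hippocampus replicate 3, at least 7.50-fold lower. Penk therefore overlapped once replicate 1 is counted, and for Grin3a the libraries of 4 cells, with floors of 141 and 274 CPM, separate nothing. Necab1, a neuronal calcium-binding protein, went the other way, at 13.2, 24.5 and 21.3 against 134 CPM (log2 difference 2.75, SE 0.494).

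Of 7886 genes tested, 9 were higher (0.114%) and 5 lower (0.0634%) in hippocampus, 0.178% in all. Neuropeptides had 0 higher and 3 lower of 14 (median -1.47, or -1.40 with genes at 0 set to their bounds, beside -0.04 over all genes), and Sst-type genes 0 and 2 of 12 (-1.08, or -0.89 with bounds). The oligodendrocyte list had 5 higher of 6 (median 3.84), with Mog at 0 by the gate. Its summed level was 229, 73.6 and 337 CPM in WT cortex, 597 and 222 in null cortex, 422, 182 and 3107 in WT hippocampus and 281 and 308 in null hippocampus.

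With the cells marked by Scrublet left out, which removed the cell rich in oligodendrocyte transcripts, 6 genes were called and 5 of the 14 remained: Npy, Nts, Necab1, Lmo4 and Lmo1, the last 2 named after their values were seen. The oligodendrocyte genes, Gm15440, Penk, Grin3a and Arpp21 were not called there (Mag, Mobp and Gm15440 fell under the low-count filter), and DESeq2 called 2 of the 14, Npy and Mobp. Penk and Grin3a were also lost without null cortex replicate 2, and Penk, Grin3a and Arpp21 with Th at least 3 UMIs, where Lmo1 fell under the low-count filter. With sums of at least 3 cells and the replicate number as a block, Penk, Necab1, Gm15440 and Lmo4 were not called, and Mobp and Lmo1 fell under that filter.

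**Figure D3:**
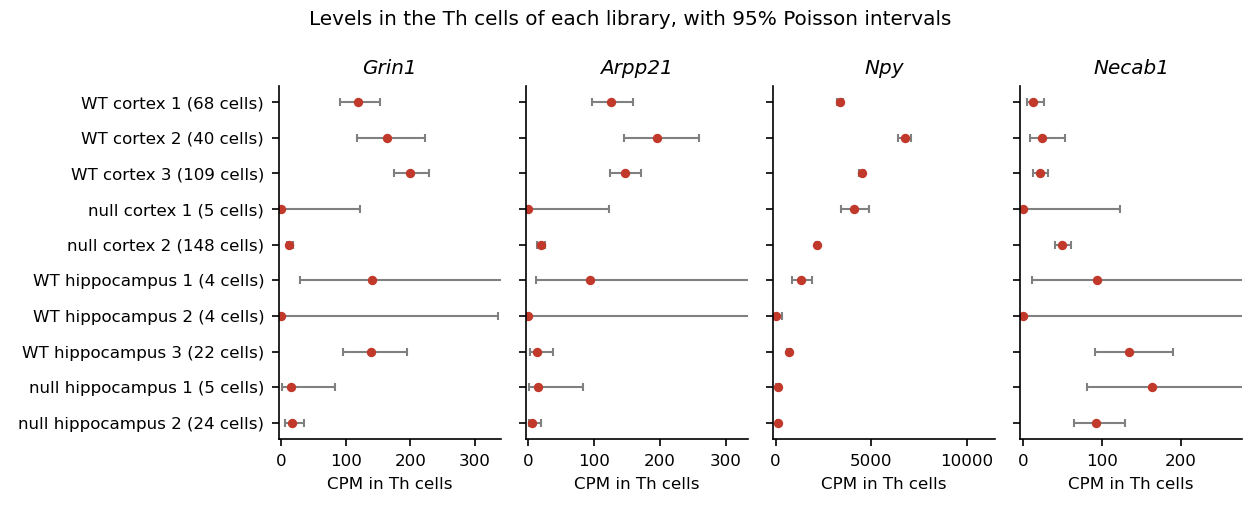
Levels (CPM, x axis) of Grin1, Arpp21, Npy and Necab1 in the Th cells of each library, with 95% Poisson intervals as bars, which run past the axis for some libraries of 4 or 5 cells. Grin1 was at 12.4 CPM in null cortex replicate 2 against 119 to 200.1 CPM in WT cortex.

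The share of Th cells among interneurons was 8.87, 2.32 and 4.88% in WT cortex and 0.887, 0.341 and 2.98% in WT hippocampus. It was 3.94 and 14.9% in null cortex and 3.03 and 1.54% in null hippocampus. WT hippocampus averaged 1.40% ± 1.39 and WT cortex 5.35% ± 3.30 (SD, n = 3 each), and the groups overlapped (exact permutation p = 0.2, two-sided, smallest possible 0.1). Within each replicate number the hippocampal share was the lower, in 3 of 3. The study describes both regions as taken from 1 set of brains, and this permutation did not use the pairs. Null cortex averaged 9.42% ± 7.76 (n = 2, exact permutation p = 0.6 against WT, smallest possible 0.2), and without null cortex replicate 2 the difference turned from 4.07 to -1.42 points. In hippocampus the null mean was 0.881 points above WT (exact permutation p = 0.4). Within each replicate number the null share was the higher there (3.03 against 0.887% and 1.54 against 0.341%). In cortex the replicate numbers went opposite ways (3.94 against 8.87% and 14.9 against 2.32%). The paper describes null and WT mice as coming from shared litters, and the genotype permutations did not use replicate numbers. Depth differed between libraries, and after thinning every cell to 3000 UMIs, which also let cells into the interneuron gate whose Mog UMIs were lost by thinning, the 3 differences were -1.97, 1.46 and 0.446 points. The WT shares were then 4.65, 1.27 and 1.32% in cortex and 0.248, 0.645 and 0.444% in hippocampus, without overlap (exact permutation p = 0.1, the smallest possible), with 1, 2 and 3 Th cells in the hippocampal libraries.

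**Figure D4:**
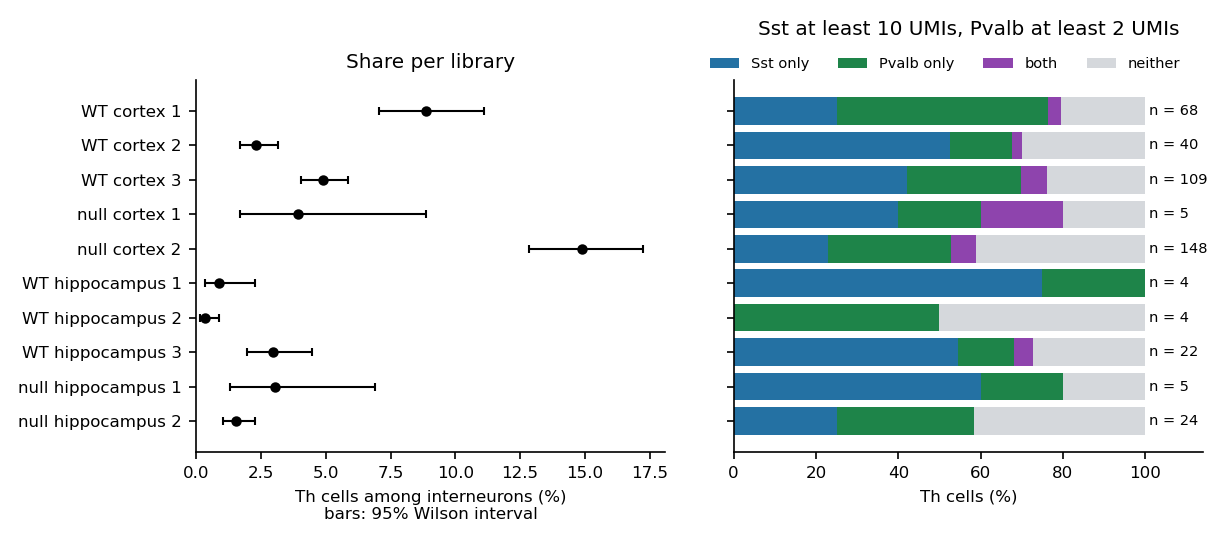
Left, share of Th cells among interneurons in each library (%, x axis) with 95% Wilson intervals; right, makeup of the Th cells (%, x axis) by Sst and Pvalb limits, with the number of cells. Null cortex replicate 2 had the highest share, 14.9%.

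The RefSeq start of Th, the gene the choice rests on, is printed because Nr4a2, a transcription factor, was higher in these cells than in Th-0 cells. In the gene annotation used for coordinates, Th lies on chromosome 7, from 142892752 to 142931128 on the minus strand. A gene on that strand begins at the upper end of its span. The RefSeq start lies inside the span instead, so the 2 annotations differ on where Th begins. The 300 bases around its RefSeq start, chr7:142899946-142900245 of GRCm38.p6, minus strand, hold 250 bases before and 50 after it, and the capitals mark a cAMP response element 45 bases before the start.
Th: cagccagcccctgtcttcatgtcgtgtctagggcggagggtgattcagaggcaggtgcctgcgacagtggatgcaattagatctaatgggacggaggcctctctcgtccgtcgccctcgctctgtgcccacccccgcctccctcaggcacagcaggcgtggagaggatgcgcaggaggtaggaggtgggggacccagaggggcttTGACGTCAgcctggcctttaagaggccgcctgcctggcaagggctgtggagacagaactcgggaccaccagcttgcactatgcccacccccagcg
The element TGACGTCA, which reads the same on both strands, occurred in 588 of 32851 promoters of this length (1.79%). The letters AAAGGTCA (TGACCTTT on the other strand), bound by Nr4a family receptors, occurred in 1.51% of promoters and not in this window.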

How the data were processed

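The values were UMI counts per gene and cell, which the authors deposited as 4 filtered matrices of 43348 genes. The submitters' processing notes name Cell Ranger 2.1.1 and mm10, whereas the matrix headers name version 3.0.2. Libraries were told apart by barcode suffix, and suffixes were matched to the replicate numbers by the cell estimates of the methods. Replicate 1 was 10x v2 and the others v3.

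The members and gene lists were chosen with earlier results of these data known. Interneurons passed the limits on genes, mitochondrial UMIs, Gad1, Gad2 and Mog; oligodendrocytes had at least 2 Mog UMIs and none of Gad1 or Gad2. Comparator cells (Th-0, Sst and Pvalb) came from the 9104 interneurons that also met the Crabp1, Chodl and Pthlh limits. UMIs were summed per library and class over at least 10 cells. Sums were tested with edgeR 4.0.16 (TMM, filterByExpr, robust quasi-likelihood fit) in R 4.3.3, with library as a block for the classes and a model of 4 groups for genotype and region. The planned test of genotype in hippocampus was not applied, because 1 library stood on each side. P-values were adjusted over all genes tested. Each SE was worked back from the test, as the absolute log2 difference over the square root of its F value. Gate genes and label markers got no test. Alternatives used DESeq2 1.42.0, and Scrublet in scanpy 1.11.5 marked 249 cells (0.950%).

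Genes of the fixed lists, which share some members, could be named. Beyond them, the rule gave, for each class comparison, the 10 largest rises and 10 largest falls among called genes with at least 50 CPM in the higher class and the same sign in every library, and 5 of each for genotype and region where the groups did not overlap. Shares were compared by exact permutation. Python 3.11.15, numpy 2.4.6, scipy 1.17.1 and pandas 2.3.3 were used. Coordinates were matched for 313 of 315 genes, and promoters came from RefSeq.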

Additional observations from a re-analysis of the deposited data

Results flagged for a closer look

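Interneurons with 1 Th UMI enter no comparison, and their label marker levels drew attention because they lay far above those of cells without Th. In these 198 cells Nr4a2 was at 133.8 CPM, Rasgrp1 at 109.4 CPM and Kcnip4 at 260.03 CPM, pooled over libraries. Th-0 cells had 10.7, 19.7 and 55.3 CPM. The difference was not tested, and how many of these cells are Th cells counted at low depth cannot be told apart from these values.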

How the results depend on the processing

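The number of genes called moved with the model more than with the cell filters. For Th against Th-0 cells (1803 genes) it was 2710 at an adjusted p under 0.05, 771 with group in place of the library block, 1009 with the WT libraries alone, and 1173 to 1644 with 1 library left out. For Th against Sst cells (2243) it was 991 with group as the block and 1411 with the WT libraries alone, and 1626 to 2271 with 1 library left out. For Th against Pvalb cells (1152) it was 1813 at 0.05, 584 with group as the block, 760 with the WT libraries alone, and 755 to 1131 with 1 library left out. A higher cut-off admits more genes by its construction; for the others the cause was not tested.

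For genotype in cortex (4 genes) the count ran from 4 to 77 with 1 library left out. For region (14) it was 2 with DESeq2, 22 with no filter on low counts, 6 without Scrublet-marked cells, and 12 to 24 with 1 library left out; the cause was not tested. With sums of at least 3 cells and a replicate block, 6 genes were called for genotype in cortex, 14 for region and 2 for genotype in hippocampus. Whether replicate numbers pair the WT libraries of the 2 regions depended on the cut-off: in a check chosen after seeing the data, every pair correlated above 0.1 at 4 of 6 cut-offs on mean UMIs, and the lowest value was 0.0215, so that all were positive. The study describes both regions as taken from 1 set of brains.

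No named gene reversed. Of the values for named genes, without those that fell under the low-count filter in an alternative (Gch1 for Th-0 cells; Mag, Mobp, Gm15440 and Lmo1 for region), 536 kept their direction and call and 39 were weaker for Th-0 cells, 363 and 15 for Sst cells, 321 and 21 for Pvalb cells, 64 and 4 for genotype in cortex and 185 and 31 for region. Grin1 in hippocampus was between -3.20 and -3.12 on the log2 scale under the cell filters and at -2.89 with sums of at least 3 cells.

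The difference in share between null and WT cortex ran from -1.42 to 9.55 points with 1 library left out, turning negative without null cortex replicate 2; the cause was not tested. The WT regional difference ran from -5.47 to -2.19 points and the genotype difference in hippocampus from 0.134 to 1.67. Alternatives with WT or cortical libraries alone and with sums of at least 3 cells were added after the data were seen. Not run were the replicate block with sums of at least 10 cells (no residual degrees of freedom), genotype in cortex without null cortex replicate 2, region without WT hippocampus replicate 3, and the test-based alternatives for genotype in hippocampus. Thinning to 3000 UMIs left out 653, 140, 1001 and 54 interneurons of WT cortex, null cortex, WT hippocampus and null hippocampus. The gate was applied again after thinning and admitted other cells, so that null hippocampus replicate 2 held 1651 interneurons against 1563 before.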

Other observations

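The 13 Th cells with 11 or more Th UMIs had Sst at 65.6 CPM, Pvalb at 736 CPM, Tac1 at 2275 CPM and no Crh UMI. The 123 cells with 2 Th UMIs had Sst at 8723, Pvalb at 440.1, Tac1 at 872 and Crh at 53.0 CPM. Between these, Sst was at 8078 and 7520 CPM with 3 to 5 and 6 to 10 Th UMIs, and Tac1 at 1009 and 972 CPM. The contrast thus rested on the 13 cells, whose median depth was 14907 UMIs against 7681 in those with 2 Th UMIs. The Th cells with neither Sst nor Pvalb above the limits had Nr4a2 at 291 CPM, Kcnip4 at 471 CPM and Npy at 243 CPM.

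Several limits apply. Libraries pooled mice, and the genotype and region tests rested on 1 library in 1 of the groups. Null cortex replicate 2 held 34.5% of the Th cells. Gate and comparators were set on transcript counts, so shallow Th cells fall among cells outside the gate. Levels of genes with few UMIs in hippocampus carry wide counting error.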
